A study of Arabidopsis thaliana with 77 samples.

Results

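In 63 of 27444 nuclear protein-coding genes of Arabidopsis thaliana, a variant call found in 1 episuppressor line and in none of the other 4 sequenced libraries made a stop codon or altered an intron end. The genes were chosen by these calls, whatever their quality, on the longest coding sequence of each gene in TAIR10 coordinates. Stop codons accounted for 49 of the genes and splice sites for 14, and no gene was hit in more than 1 line. Line 2-69 held 17 of the genes (0.0619% of all), 2-20 held 17 (0.0619%), 3-72 held 16 (0.0583%) and 3-75 held 13 (0.0474%), which makes 0.23% over the 4 lines. These shares were set by the choice of the genes and are given as a description. The library labelled rdr1 rdr2 rdr6 held 0 such calls of its own. It also held few other coding calls of its own, 36 missense and 20 synonymous when counted per gene. Line 3-75, with the fewest of the lines, held 196 and 82, so the 0 is not a contrast with the lines.

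The calls come from genomic DNA of Columbia rosette leaves, taken from soil-grown plants 4 weeks old and sequenced as read pairs. The 4 lines are labelled rdr1 rdr2 rdr6 ddm1, with the names episuppressor 2-69, 2-20, 3-72 and 3-75, and have 1 library each. The fifth library is labelled rdr1 rdr2 rdr6. All 5 libraries were homozygous for the RDR6 stop R269*, so all carry this truncating allele of an RNA-dependent RNA polymerase. The DDM1 change C615Y was homozygous in the lines and heterozygous in the library labelled rdr1 rdr2 rdr6, with 9 of 19 reads, although that label names no ddm1 allele. DDM1 is a chromatin remodeller needed for DNA methylation of transposons. Whether a library came from 1 plant or from several is not given in the sources used here, so a heterozygous plant and a mixture of plants cannot be told apart. The files list called sites only, and a library without a call may have lacked reads there.

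A premature stop codon ends translation early, and plants often degrade such mRNAs by nonsense-mediated decay, mainly where an exon junction lies well downstream of the stop. Nearly all plant introns begin with GT and end with AG, and the splicing machinery reads these bases at the donor and the acceptor. A change there can lead to a retained intron, a skipped exon or the use of a nearby site. DNA calls show none of these outcomes, and neither RNA nor protein was measured in these 5 libraries.

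The sequences around the 12 homozygous stops show which codon was lost. They are given as coding sequence of the RefSeq TAIR10.1 assembly, 5′ to 3′, with the affected codon in capitals, and each name carries the position of the changed base and the strand of the gene. The stop in AT5G38840 is added because it is the single stop that did not come from a G/C to A/T change. A name such as Q26* gives the reference residue, its number in the protein and the stop.
AT1G64500 (2-69, Q133*, chr1:23953666, plus strand): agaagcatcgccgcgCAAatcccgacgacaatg
AT1G67520 (2-69, W221*, chr1:25305216, minus strand): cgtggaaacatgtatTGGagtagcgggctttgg
AT2G27650 (2-69, W251*, chr2:11796591, minus strand): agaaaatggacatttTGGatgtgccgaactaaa
BGLU24 (2-69, Q104*, chr5:10483242, minus strand): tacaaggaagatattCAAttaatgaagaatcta
HCAR (3-72, W429*, chr1:1283079, minus strand): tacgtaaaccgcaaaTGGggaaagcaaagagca
AT3G17750 (3-72, Q780*, chr3:6076717, plus strand): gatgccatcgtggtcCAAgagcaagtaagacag
AT1G14220 (3-75, W74*, chr1:4859275, minus strand): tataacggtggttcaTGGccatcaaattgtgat
GSTU25 (3-75, W11*, chr1:5872240, plus strand): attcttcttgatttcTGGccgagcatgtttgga
SPPL2 (3-75, W388*, chr1:23621212, plus strand): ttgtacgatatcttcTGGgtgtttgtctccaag
AT2G18220 (3-75, R761*, chr2:7931837, plus strand): aagaagaagaaggccCGAgtagcttcttaa
BSK1 (3-75, Q26*, chr4:16757966, minus strand): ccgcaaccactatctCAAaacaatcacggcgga
AT5G52850 (3-75, Q774*, chr5:21415297, minus strand): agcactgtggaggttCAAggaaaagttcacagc
AT5G38840 (3-72, E580*, chr5:15554287, plus strand): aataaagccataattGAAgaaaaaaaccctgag

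Of the 14 changed intron ends, 13 are given on the strand of the gene, 5′ to 3′, with the 2 intron bases next to the exon in capitals. All 5 donors read GT and all 9 acceptors read AG in the reference. A base change such as G17418040A gives the base of the reference forward strand, its chromosome position and the called base, so a C to T change in a gene on the reverse strand replaces a G. The donors come first.
ALB1 (2-69, G2699401A, chr1:2699401, plus strand): ccaatgcttccaaagGTttgcccttaacaa
SVL2 (2-69, C24993132T, chr1:24993132, minus strand): ctgcaagatacaaaaGTaagtggttcatag
AT1G30860 (2-20, C10987504T, chr1:10987504, minus strand): cagactccttgagcgGTaagtaaccatcaa
BTS (3-75, G6275142A, chr3:6275142, plus strand): aaagaacagaaacagGTatttttttctttt
NAPRT1 (3-75, G17418040A, chr4:17418040, plus strand): gttagctcattcatgGTaagtttgctttag
AT3G26340 (2-69, C9652012T, chr3:9652012, minus strand): tgtttttccattcAGcgtcgcaatctgtga
AT3G52030 (2-69, G19302864A, chr3:19302864, plus strand): tgctattttctatAGaaattggaagttgta
IP5PI (2-20, G12428879A, chr1:12428879, plus strand): gataaccttgtgtAGaagaataatctggct
PHYLLO (3-72, G25898025A, chr1:25898025, plus strand): ccgaaatttcaacAGattgagttagatgag
CPK13 (3-72, A19234664T, chr3:19234664, plus strand): atttgtataaaacAGgtggatactaaagga
AT5G05010 (3-72, G1479139A, chr5:1479139, plus strand): ttttgtctgatgcAGtaaactgctggcctt
AT1G64430 (3-75, G23936068A, chr1:23936068, plus strand): ccaaatgcttcacAGgaaaacattgctcaa
EDS5 (3-75, G18186744A, chr4:18186744, plus strand): ttaccggtttaatAGgaccgggaacagtac

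Of the 63 calls, 61 were G/C to A/T changes. The exceptions were both in 3-72: A19234664T at the acceptor of CPK13, a calcium-dependent protein kinase, and G15554287T, which gave E580* in AT5G38840, an FHA domain protein. G/C to A/T changes also made up 80.5% to 92.7% of the line-specific missense calls by line, and 77.8% to 94.7% of the synonymous ones. Among stop and splice calls the share was 87.5% in 3-72 and 100% in each other line. This difference was not tested. Every splice change other than that of CPK13 replaced the G of the GT or AG, the only base there that a G/C to A/T change can alter. Tryptophan codons gave 24 of the 49 stops, glutamine codons 17, arginine codons 7 and a glutamate codon 1. A G/C to A/T change can make a stop only from tryptophan, glutamine or arginine codons, so the type of change restricted this list. The new stop was TGA in 28 genes, TAA in 14 and TAG in 7. The genes lay on all 5 chromosomes, 19 on chromosome 1, 6 on chromosome 2, 25 on chromosome 3, 5 on chromosome 4 and 8 on chromosome 5. These numbers were not compared with those of all genes or all line-specific calls per chromosome, so they show no preference for a chromosome.

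The stops fell along the whole length of the proteins. The median share of the protein before the stop was 32.3%, and the range was 1.88% in AT3G43570, a GDSL-like lipase, to 99.5% in AT2G18220, a Noc2p family protein. Of the 49 stops, 8 kept less than 10% of the protein, 32 kept less than 50%, 12 kept between 50% and 90%, and 5 kept more than 90%. The medians by line were 22.6% in 2-69, 29.3% in 2-20, 62.0% in 3-72 and 42.2% in 3-75, with ranges that overlapped throughout. In 33 genes the stop lay more than 50 nt before the last exon junction of the mRNA. It lay within 50 nt of that junction in HCAR and AT3G48835, in the last exon in 6 genes, and in a gene without introns in 8. The last-exon stops were those of TGA4, GATA15, TRFL4, AT3G44070, AT2G18220 and CYP705A28.

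**Figure D1:**
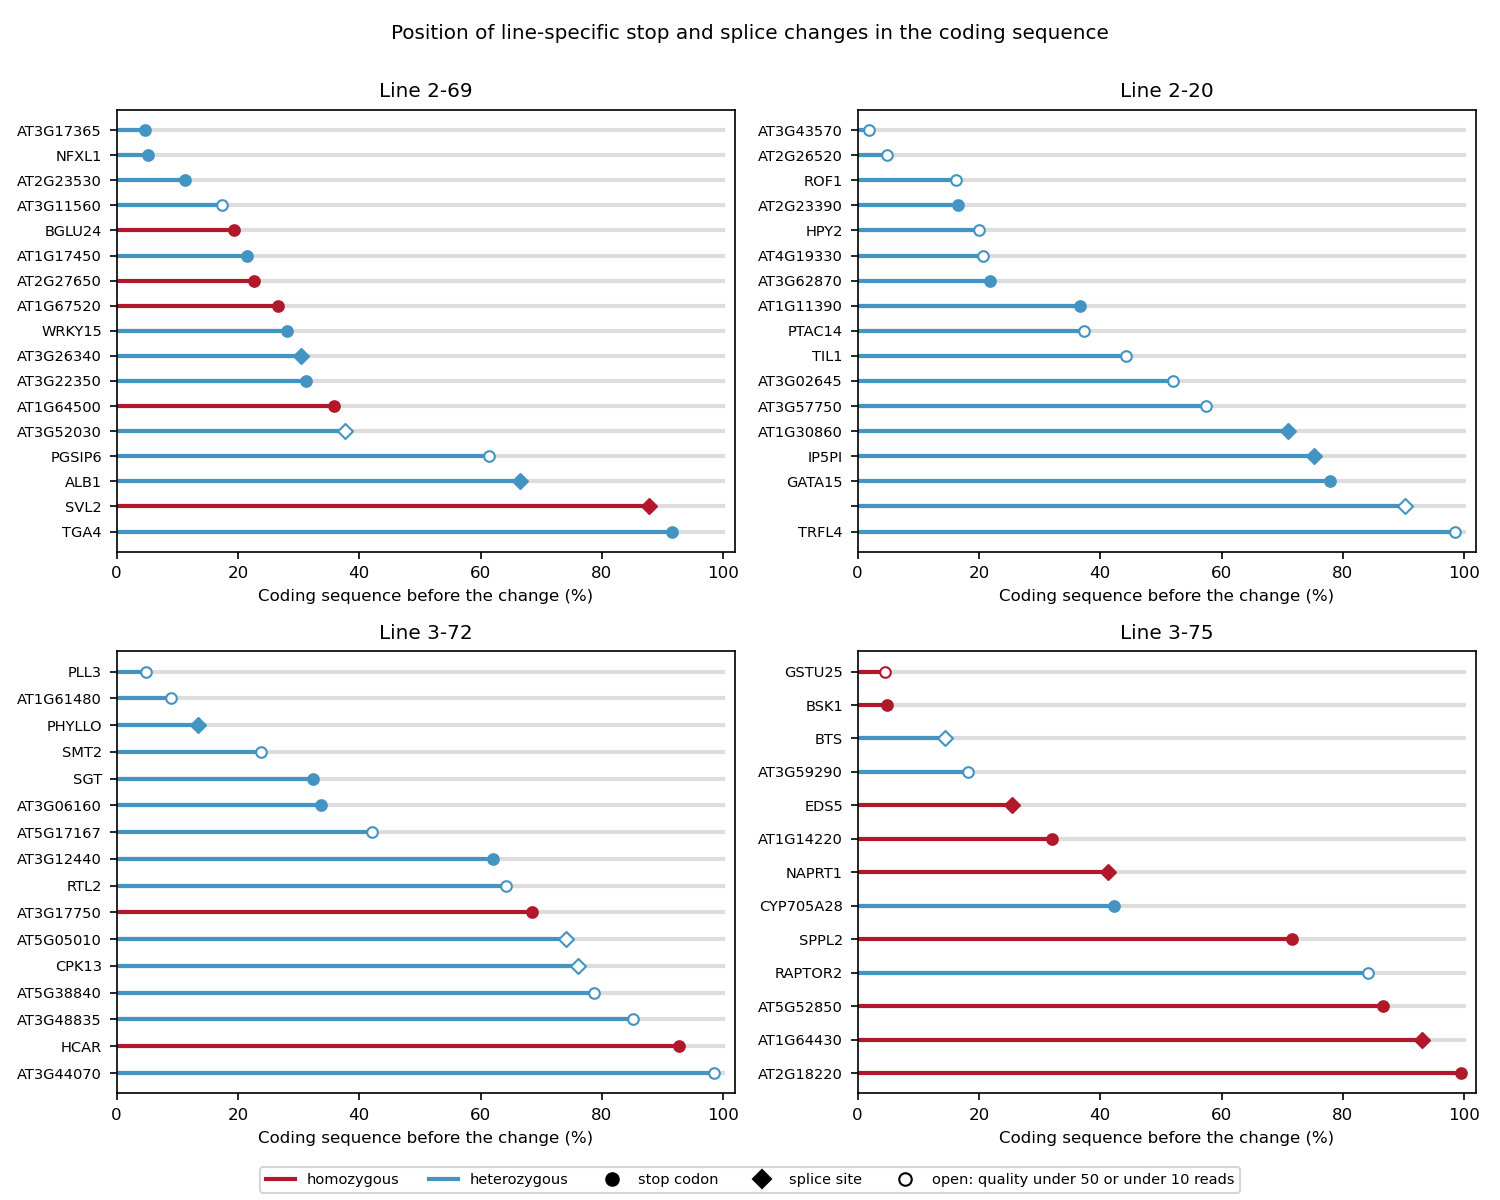
Share of the longest coding sequence that lies before each change (x axis, percent), with 1 row per gene (1 row of 2-20 has no name) and 1 panel per line; circles are stops, diamonds splice sites, red homozygous and blue heterozygous calls, and open symbols mark a quality score under 50 or fewer than 10 reads. The stops spread from 1.88% to 99.5%, and line 2-20 has no homozygous call.

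Each call carries the genotype, the quality score (phred-scaled, higher is more certain) and the numbers of high-quality reads as the authors' caller gave them. The calls were homozygous in 16 genes (12 stops and 4 splice sites) and heterozygous in 47. At every homozygous call all high-quality reads carried the change, and these numbered 9 to 48 with a median of 16. At the heterozygous calls the changed base had 25% to 81.8% of the reads, with a median of 45.1%. The exact 95% interval of that share included 50% in 43 of the 47. Those that left it out were IP5PI and AT3G62870 above it, and AT3G11560 and BTS below it. Reads on both strands supported the change at all 63 sites, and no other call of the same library lay within 100 bp. Intervals and limits here cover counting error only.

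**Figure D2:**
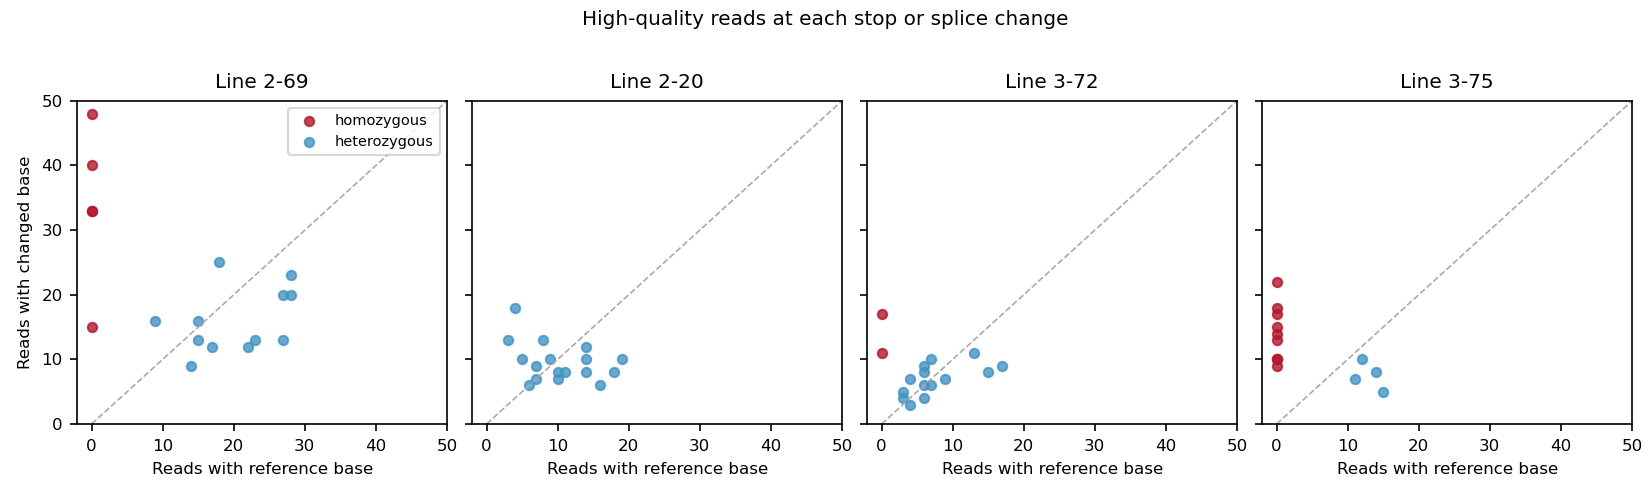
High-quality reads with the changed base (y axis, number) against reads with the reference base (x axis, number) at each of the 63 sites, 1 panel per line; red points are homozygous and blue points heterozygous calls, and the dashed line marks equal numbers. The homozygous points lie at 0 reference reads with 9 to 48 changed reads, and the heterozygous points lie around the line.

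Quality scores of the homozygous calls were 96 to 182, with a median of 140.5, and those of the heterozygous calls were 4.13 to 114, with a median of 48. Of the 63 genes, 35 had a score of 50 or more with at least 10 reads. These were 14 in 2-69, 6 in 2-20, 6 in 3-72 and 9 in 3-75. NFXL1 lay just inside that limit with a score of 50, and AT3G11560, PGSIP6 and ROF1 lay just outside it with 49 each. GSTU25 was the single homozygous call outside it, because of its 9 reads. The median depth at the sites was 34 reads in 2-69, 20 in 2-20, 14 in 3-72 and 18 in 3-75.

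Line 2-69 had homozygous changes in 5 genes. AT1G64500 (chr1:23953099-23954610), a glutaredoxin family gene without introns, kept 132 of 368 residues before Q133*, and all 40 reads carried the stop at a quality of 182. AT1G67520 (chr1:25302628-25306357), a lectin protein kinase, was stopped at residue 221 of 825 with 48 of 48 reads, and 5 of its 8 annotated transcripts contain the codon. The ubiquitin hydrolase-related gene AT2G27650 (chr2:11792825-11797712) kept 250 of 1106 residues, with the stop in exon 1 of 12 and in 33 of 33 reads. BGLU24 (AT5G28510, chr5:10480757-10484073), a beta glucosidase, kept 103 of 533 residues before the stop in exon 4 of 13, which 15 of 15 reads carried. SVL2 (AT1G66970, chr1:24992386-24996359), named for its likeness to the protein SHV3, had the G of the intron 7 donor replaced in 33 of 33 reads. The intron follows 87.8% of the coding sequence and is preceded by an exon of 487 nt. The 5 homozygous changes of this line thus include 3 stops in the early part of multi-exon genes and 1 in a gene without introns.

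The 5 heterozygous changes of 2-69 with the best scores were stops. AT1G17450, annotated as a B-block binding subunit of the RNA polymerase III factor TFIIIC, had W396* in 25 of 43 reads at a quality of 114, the highest heterozygous score of the 63 genes. AT2G23530, a zinc-finger protein, had R63* in 16 of 25 reads, and the F-box gene AT3G22350 had W119* in 23 of 51. WRKY15, a WRKY transcription factor, was stopped at R90* in 16 of 31 reads, before most of its 317 residues. AT3G17365, a predicted methyltransferase, had its stop W14* in 20 of 48 reads. The remaining 7 had qualities of 48 to 75. They were the stops in NFXL1 (Q63*), a transcription factor, AT3G11560 (W152*), a LETM1-like protein, TGA4 (Q334*), a bZIP factor of defence responses, and PGSIP6 (Q331*). The splice changes were in ALB1, the D subunit of the magnesium chelatase that makes chlorophyll, in AT3G26340, an Ntn hydrolase, and in AT3G52030, an F-box protein with WD40 repeats. Reads at these 7 sites were 32.5% to 46.4% for the change.

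Line 2-20 had 0 homozygous changes among its 17 genes. The best score there was that of AT3G62870, a ribosomal protein of the L7Ae family, with Q57* in 18 of 22 reads (81.8%, exact 95% interval 59.7 to 94.8). IP5PI, an inositol polyphosphate 5-phosphatase, had the intron 7 acceptor changed in 13 of 16 reads (81.2%, 54.4 to 96.0). Both genes were called heterozygous although most reads carried the change. AT1G30860, a RING/U-box protein, had the intron 3 donor changed in 13 of 21 reads, and the kinase gene AT1G11390 had W230* in 10 of 15. AT2G23390 had Q79* in 12 of 26 reads.

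The other 12 genes of 2-20 had quality scores of 12.3 to 65. TIL1, the catalytic subunit of DNA polymerase epsilon, which copies nuclear DNA, had Q957* in 6 of 12 reads, within 2161 residues. HPY2, a SUMO ligase, had Q51* in 8 of 26 reads at a quality of 21. Of genes that act in plastids, PTAC14, a component of the plastid transcription complex, had W181* in 8 of 18 reads. ROF1, an FKBP-type peptidyl-prolyl isomerase, had Q92* in 10 of 24. GATA15, a GATA transcription factor, had R117* in 10 of 19 reads in its last exon, with 77.9% of the protein before it. TRFL4, a protein like telomere-repeat-binding factors, kept 394 of 400 residues before W395*. The other stops fell in AT3G43570 (W7*), AT2G26520 (W8*), AT4G19330 (R80*), AT3G02645 (Q276*) and AT3G57750 (W193*).

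Line 3-72 had homozygous stops in 2 genes. HCAR (AT1G04620, chr1:1282163-1286619), the 7-hydroxymethyl chlorophyll a reductase of the chlorophyll cycle, kept 428 of 462 residues before W429*, in exon 18 of 19, with 11 of 11 reads. AT3G17750 (chr3:6073731-6078748), a protein kinase gene, had Q780* in 17 of 17 reads and kept 68.5% of 1138 residues. Of the heterozygous calls, AT3G12440, a ribonuclease H-like protein, had Q220* in 10 of 17 reads. SGT, a sterol glucosyltransferase, had Q207* in 11 of 24 reads, and AT3G06160, a B3-type transcription factor, had W127* in 9 of 15. PHYLLO, a fused enzyme of phylloquinone synthesis, had the acceptor of intron 4 changed in 8 of 14 reads, a site used by 1 of its 2 transcripts. AT5G17167, an OB-fold-like protein, had W82* in 7 of 11 reads.

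The 9 other genes of 3-72 had scores of 7.8 to 41. SMT2, a sterol methyltransferase, had W87* in 9 of 26 reads. RTL2, an RNase III-like protein, had W252* in 7 of 16 reads. CPK13 had the intron 5 acceptor changed in 6 of 13 reads, and AT5G05010, of the clathrin adaptor medium subunit family, had the intron 8 acceptor changed in 6 of 12. The remaining stops were in AT1G61480 (W74*), an S-locus lectin kinase, PLL3 (Q32*), a protein like the phosphatase POL, AT3G44070 (W273*), AT3G48835 (R352*) and AT5G38840 (E580*). AT3G44070 had the lowest support of these, with 3 of 7 reads and a quality of 7.8, and its stop left 4 residues uncoded. CPK13 was also the only gene of the 63 with a protein change private to another line, a heterozygous D98N in 2-20.

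Line 3-75 had the most homozygous changes, in 9 of its 13 genes. BSK1 (AT4G35230, chr4:16755092-16758358), a receptor-like cytoplasmic kinase of brassinosteroid signalling, kept 25 of 512 residues, with 17 of 17 reads for the stop. GSTU25 (AT1G17180, chr1:5872024-5873124), a glutathione S-transferase, kept 10 of 221 residues before W11*, in 9 of 9 reads. AT1G14220 (chr1:4858450-4859661), a ribonuclease T2 family gene, had W74* in 10 of 10 reads and kept 32.0% of 228 residues. In these 3 genes less than 50% of the protein precedes the stop.

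The other 3 homozygous stops of 3-75 lay late in the protein. SPPL2 (AT1G63690, chr1:23618012-23622396), an intramembrane protease, kept 387 of 540 residues, with 22 of 22 reads. AT5G52850 (chr5:21414935-21417616), a pentatricopeptide repeat gene without introns, kept 773 of 893 residues, with 18 of 18 reads. AT2G18220 (chr2:7928015-7931953) kept 760 of 764 residues, with 14 of 14 reads, so that R761* removed the last 4. Homozygous splice changes of 3-75 fell at the first intron of EDS5 (AT4G39030, chr4:18185437-18189224), a MATE transporter needed for salicylic acid accumulation in defence, in 10 of 10 reads. They also fell at intron 6 of NAPRT1 (AT4G36940, chr4:17416855-17420252), an enzyme of NAD salvage, in 15 of 15 reads, and at intron 10 of AT1G64430 (chr1:23933380-23936867), in 13 of 13. The AT1G64430 site is used by 2 of its 3 transcripts and follows 93.0% of the coding sequence.

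The 4 heterozygous genes of 3-75 were CYP705A28, a cytochrome P450, with W148* in 10 of 22 reads, RAPTOR2, a subunit of the TOR kinase complex, with W1126* in 8 of 22, AT3G59290, an ENTH/VHS protein, with R188* in 7 of 18, and BTS. BTS, a ubiquitin ligase of the iron deficiency response, had the intron 2 donor changed in 5 of 20 reads (25%, 8.66 to 49.1). Its quality of 4.13 was the lowest of the 63 calls.

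At the 14 splice sites, the length of the exon next to the changed site is a multiple of 3 in 6 genes and not in 8. It is a multiple of 3 in ALB1 (207 nt), AT1G30860 (684 nt), PHYLLO (117 nt), CPK13 (231 nt), AT1G64430 (54 nt) and BTS (210 nt). If that exon alone were skipped, these 6 would keep the reading frame and the other 8, among them SVL2, NAPRT1 (76 nt) and EDS5 (95 nt), would not. That is arithmetic on the gene models, and exon skipping was not measured. The intron beside the site was 66 nt in ALB1 to 590 nt in EDS5. Over stops and splice sites, 36 of the 63 genes have 1 annotated coding transcript and 27 have several, and the change hit every transcript in 58. The exceptions were AT1G67520, PHYLLO and AT1G64430, described above, AT3G52030 (1 of 2 transcripts) and IP5PI (4 of 5).

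Protein families differed widely among the genes. A BLAST search of each protein against the proteins of all other genes gave a match for 57 of 63. The 6 without one were AT3G52030 in 2-69, AT2G23390 and HPY2 in 2-20, HCAR and AT5G05010 in 3-72, and AT1G64430 in 3-75. A paralog with at least 50% identity over at least 50% of the protein was found for 36 genes, 11 of the 16 homozygous and 25 of the 47 heterozygous ones. The difference by zygosity was not tested. Only the 63 genes were searched in this way, so the share among all genes is not known. In 9 genes the best match reached 80% identity over 80% of the protein. In 2-69 these were AT3G26340 (85.4% to PBE1) and TGA4 (85.1% to TGA1). In 2-20 they were TIL1 (85.3% to TIL2), AT3G43570 (87.4%) and AT3G62870 (96.1% to AT2G47610). In 3-72 they were SMT2 (83.0% to SMT3) and AT1G61480 (81.1%), and in 3-75 NAPRT1 (88.4% to NAPRT2) and RAPTOR2 (81.0% to RAPTOR1). NAPRT1 was the only one of these 9 that was homozygous.

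**Figure D3:**
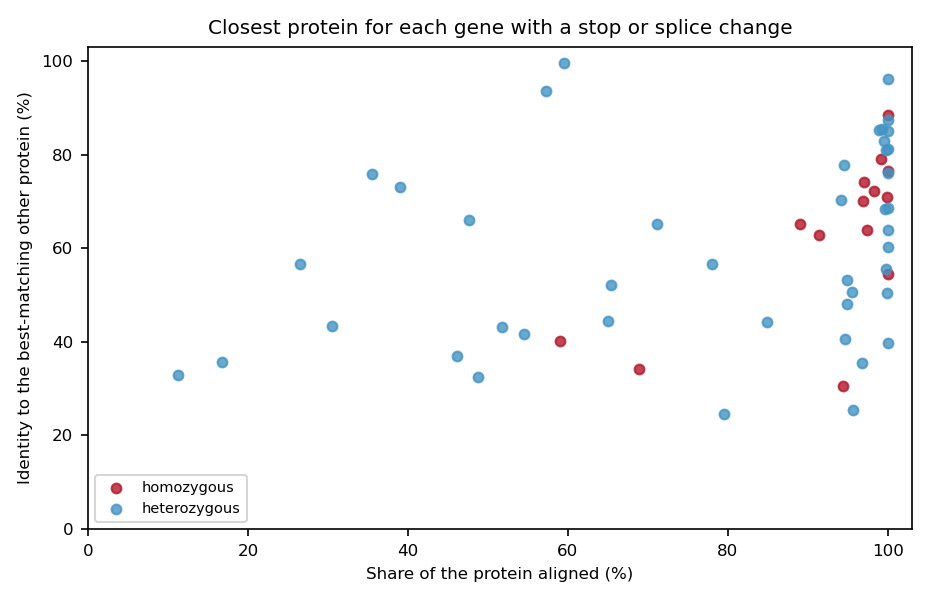
Identity of each protein to its best match among the proteins of other genes (y axis, percent) against the share of the protein that aligned (x axis, percent), for the 57 genes with a match; red points are homozygous and blue points heterozygous changes. Homozygous points lie between 59.0% and 100% aligned and heterozygous points between 11.2% and 100%, and AT3G62870 has the highest identity of the fully aligned proteins, 96.1%.

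The other homozygous genes ranged from close families to distant ones. BGLU24 matched PYK10 at 76.5% identity and has 11 paralogs of the kind counted above. BSK1 has 12, with BSK5 closest at 65.2%, GSTU25 has 9, with GSTU24 closest at 79.0%, and AT2G27650 has 10. SVL2 matched its chromosome neighbour SNC4 at 74.2%, SPPL2 matched SPPL4 at 70.2%, and EDS5 matched AT2G21340 at 62.9%. AT1G64500, AT2G18220 and AT5G52850 had matches of 40.2%, 34.2% and 30.6%, below the limit. Near-identical copies can draw reads from another locus, so a stretch of 201 nt around each site was also searched against the genome. No second match that spanned the site was found for 21 sites, and the best second match at the other 42 had 67.8% to 99.5% identity. It reached 95% over at least 150 nt at AT4G19330 (99.5%) in 2-20, which had 6 of 22 reads at a quality of 12.3, and at AT5G17167 (98.5%) in 3-72. A lower limit of 90% over at least 100 nt was reached at 6 sites, these 2 among them, and all 6 were heterozygous. Also reaching it were TIL1 (91.7%) and AT3G43570 (92.0%) in 2-20, AT1G61480 (92.0%) in 3-72 and CYP705A28 (90.8%) in 3-75. Whether reads of the copies account for these 6 calls was not tested. No homozygous site had a second match above 90% over 100 nt.

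Zygosity played no part in choosing the genes, so it was compared with that of other line-specific coding calls of the same libraries. Of the stop and splice calls 16 of 63 were homozygous (25.4%), against 132 of 444 synonymous calls (29.7%) and 306 of 1032 missense calls (29.7%). Stratified by line, the difference was -5.60 percentage points from synonymous calls (odds ratio 0.733, 95% interval 0.360 to 1.43, two-sided exact conditional Cochran-Mantel-Haenszel test, p = 0.435, adjusted p = 0.650 over 3 tests). It was -3.51 points from missense calls (odds ratio 0.822, 0.416 to 1.56, exact p = 0.650, adjusted p = 0.650). Neither passed the threshold of 0.05, and both intervals include odds below and above those of the other calls. Calls in the same stretch of a chromosome tend to share their zygosity, so they are not independent and these p-values are unreliable. Whether they are too small, and by how much, was not tested.

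Within lines the differences went both ways. In 2-69, 5 of 17 stop and splice calls were homozygous (29.4%, Wilson 95% interval 13.3 to 53.1), against 51 of 103 synonymous calls (49.5%) and 102 of 274 missense calls (37.2%). In 2-20 the numbers were 0 of 17 (Wilson upper limit 18.4%; 3 counts of the total, the limit that a count of 0 allows, give 17.6%), against 13 of 108 (12.0%) and 18 of 217 (8.29%). Line 3-72 had 2 of 16 (12.5%, 3.50 to 36.0), against 34 of 152 (22.4%) and 96 of 346 (27.7%). Line 3-75 stood on the other side, with 9 of 13 (69.2%, 42.4 to 87.3), against 34 of 81 (42.0%) and 90 of 195 (46.2%). No line passed by itself (two-sided Fisher's exact tests, adjusted p = 0.405 to 0.611 over 8 tests). Without 3-75 the difference from synonymous calls was -14.0 points, and its exact p was 0.0277, unadjusted and subject to the same linkage of calls. Without 2-69 it was -0.355 points.

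**Figure D4:**
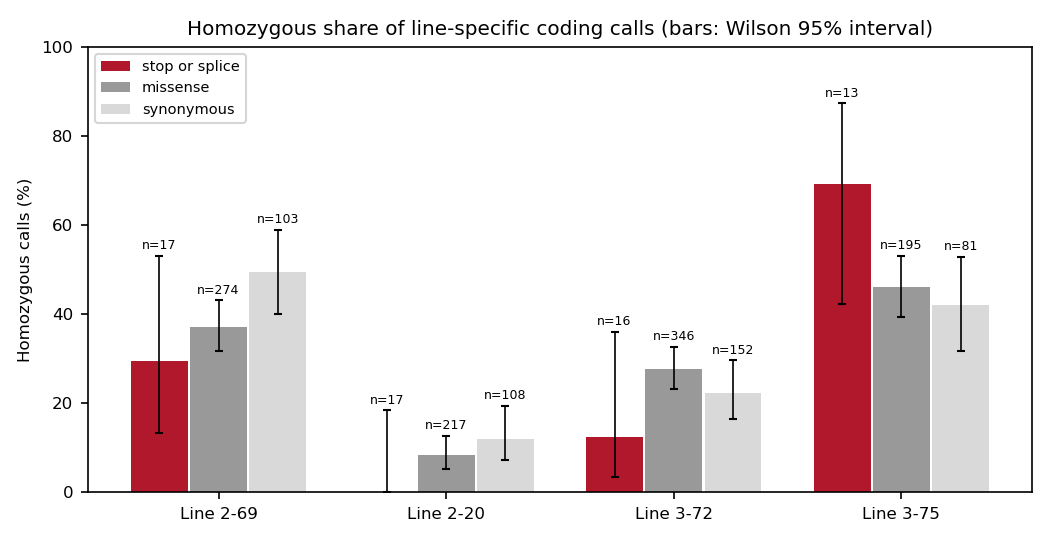
Homozygous share of line-specific calls (y axis, percent) for stop or splice, missense and synonymous calls in each line; error bars are Wilson 95% intervals and n is the number of calls. The stop or splice share is below the synonymous share in 2-69, 2-20 and 3-72 and above it in 3-75, with intervals that overlap in each line.

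The support for the calls was compared in the same way, by a limit that is tied to zygosity. Among the 63 genes, 20 of the 47 heterozygous calls reached it, and all 16 homozygous ones but GSTU25. The comparison thus partly repeats that of zygosity. A quality of 50 or more with at least 10 reads was reached by 35 of 63 stop and splice calls (55.6%), against 260 of 444 synonymous calls (58.6%). The stratified difference was -5.28 points (odds ratio 0.779, 0.420 to 1.44, exact p = 0.462, adjusted p = 0.650). By line the shares were 82.4% against 89.3% in 2-69, 35.3% against 55.6% in 2-20, 37.5% against 43.4% in 3-72 and 69.2% against 51.9% in 3-75, and no line passed Fisher's exact test (adjusted p = 0.557 to 0.793 over 4 tests).

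The zygosity of each change was set beside that of its 10 nearest neighbours on the chromosome, taken from the line's own G/C to A/T calls with a quality of at least 50 and at least 10 reads. The farthest of the 10 lay 311 to 3815 kb away. Homozygous calls reached the limit on quality and reads more often than heterozygous ones among the stop and splice calls. Around the 16 homozygous changes, 8 to 10 of the 10 neighbours were homozygous, and all 10 were in 11 cases. Around the 47 heterozygous changes the median was 0, and 39 had none. The 8 heterozygous changes with a homozygous neighbour were all in 3-72. AT5G38840 stood apart among them, with 10 of 10 neighbours homozygous while its own change had 4 of 10 reads and a quality of 15.1. RTL2 had 6 homozygous neighbours, PHYLLO had 3 and the other 5 had 1 each. A description is all that these counts allow, because neighbouring calls lie on the same chromosome stretch.

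**Figure D5:**
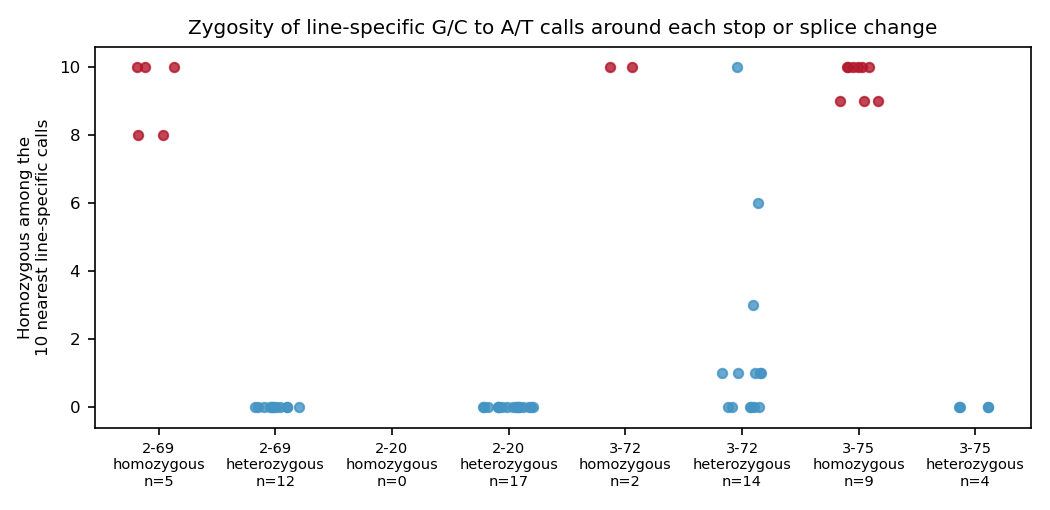
Number of homozygous calls among the 10 nearest private G/C to A/T calls of the line (y axis) for each stop or splice change, grouped by line and by the zygosity of the change (x axis, n = number of changes; points are spread sideways for visibility). Homozygous changes, in red, have 8 to 10 homozygous neighbours, and heterozygous changes, in blue, have 0 outside line 3-72.

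The series concerns RNA silencing, transposons and centromere function, so 58 genes in 4 lists were checked for stop and splice calls. Of 20 genes of RNA silencing, 13 of centromeres, kinetochores and cohesin, 15 of chromatin and DNA methylation, and 10 of meiosis, 0 held a line-specific stop or splice call in the longest coding sequence. With 0.23% of all genes hit, a count of 0 among 58 says nothing particular about these lists. HPY2, a partner of the SMC5/6 complex, RTL2 and TRFL4 are related by function or name and were not on the lists. They are mentioned here after their values were seen, and all 3 calls were heterozygous with scores of 21, 41 and 46. AGO3, an Argonaute gene also not on the lists and named after its values were seen, had a homozygous donor change in 2-69 (quality 124) that hits 1 of 3 transcripts and not the longest.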

How the data were processed

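Genomic DNA of 5 libraries was sequenced, 5 of the 77 samples of the series, and the authors deposited single-base calls in VCF 4.1. The file headers name samtools 0.1.19-44428cd, and the submitters' processing notes list Bismark, Bowtie and SAMtools, with the build TAIR10, without versions or roles. The filters were not given in the sources used here. The quality score is the authors' value, phred-scaled per the file headers, and genotypes, depth and reads per base are also as deposited.

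Nuclear calls were compared by chromosome, position and called base. Gene models came from the RefSeq annotation of the TAIR10.1 assembly, whose 5 chromosomes have the lengths in the file headers. None of 34875 calls differed from it in the reference base. A splice site was taken as the 2 bases of an intron that touch an exon. In a check of the code, 100% of 2000 random coding changes were classed as by a separate translation of the same coding sequences. The 9522 positions planted at and near intron ends were also classed correctly (100%). They were taken from the same intron coordinates, so this outcome says nothing about the gene models. Donor and acceptor labels were not checked. Each call was counted once in the tests, by its most severe effect. Shares were compared by exact tests, stratified by line, with Benjamini-Hochberg adjustment. Proteins and windows of 201 nt were searched with BLAST+ 2.17.0 (e-value at most 1e-05). Other tools were Biopython 1.88, scipy 1.17.1 and numpy 2.4.6 under Python 3.11.15, with figures drawn by matplotlib 3.10.9.

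The genes, lists, tests and limits were chosen with earlier results of these data known. Every gene is named except 1 of line 2-20, which is not reported here, with full values for homozygous calls and up to 5 heterozygous calls per line by quality. Alternatives were a quality of 50 or more with at least 10 reads, G/C to A/T changes only, comparison by position, any coding transcript, calls outside clusters of 3 within 100 bp, homozygosity by a read share of 0.8, and leaving out each line. Depth limits the calls: with 7 to 52 reads at a site, the share of changed reads is known only within wide exact intervals.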

Additional observations from a re-analysis of the deposited data

Results flagged for a closer look

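The homozygous share of stop and splice calls, set against that of synonymous calls, was compared between the lines. Zelen's exact test of equal odds ratios over the 4 lines gave an unadjusted p = 0.0459, which became 0.138 after Benjamini-Hochberg adjustment over 3 such tests and did not pass, so a difference between lines is not established. Linked calls also make these p-values unreliable. The share was below that of synonymous calls in 2-69 (29.4% against 49.5%), 2-20 (0 of 17 against 12.0%) and 3-72 (12.5% against 22.4%). It was above it in 3-75 (69.2% against 42.0%). In 3-75 the 9 homozygous changes lie in stretches where 9 or 10 of the 10 nearest well-supported private calls are also homozygous. The farthest of the 10 lay 989 to 2297 kb away. The limit for well-supported calls was reached more often by homozygous calls than by heterozygous ones among the 63 genes. The part of these stretches in the difference was not tested.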

How the results depend on the processing

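Of the 63 genes, 35 had a quality score no lower than 50 and at least 10 reads. The genes numbered 61 when changes other than G/C to A/T were dropped, 63 by position, 63 outside clusters of calls and 65 over any coding transcript. Leaving out 1 line at a time, the homozygous share less that of synonymous calls ran from -14.0 to -0.355 points. Without 3-75, the only line above its synonymous share, the exact Cochran-Mantel-Haenszel p was 0.0277, unadjusted and, with linked calls, unreliable. Against missense calls the difference ran from -10.4 to 0.578 points, and turned round without 3-72. The share of well-supported calls ran from -11.1 to 0.181 points and turned round without 2-20. The causes were not tested. Every other alternative run kept the direction of these 3 differences and did not pass. Sizes moved in some: homozygosity by a read share of 0.8, not run for support, gave -2.45 points against synonymous and -0.525 against missense calls. The quality limit gave -9.58 against synonymous calls. Dropping changes other than G/C to A/T gave -8.55, -6.56 and -10.1 points for the 3 differences. No paired analysis was possible because each line has 1 library. Depth sets a limit: a homozygous call with 9 reads, as in GSTU25, has an exact 95% interval that reaches down to 66.4% changed reads, and sites without reads are not listed.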

Other observations

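Some stop and splice-site calls fell outside the genes described because more than 1 library carried them. There were 8 such calls in 7 genes, besides the 63, and R269* of RDR6, homozygous in all 5 libraries, was one of them. The RNA polymerase gene NRPD4 (AT4G15950), whose product is a subunit of the polymerases of RNA-directed DNA methylation, had C9040942G at the donor of intron 2. It was homozygous in all 5 libraries, and every high-quality read carried it: 24 reads for 2-69, 13 for 2-20, 6 for 3-72, 12 for 3-75 and 16 for the library labelled rdr1 rdr2 rdr6. The reference donor reads CT and the called one GT, so the called bases are the usual ones of a donor. AT5G36320, an ECA1 gametogenesis related gene, had Q22* called homozygous in all 5. AT4G20703 had L60* called heterozygous in 2-69 (20 of 43 reads), 3-72 (8 of 14 reads), 3-75 (17 of 36 reads) and the library labelled rdr1 rdr2 rdr6 (12 of 27).

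The other 4 shared calls were heterozygous. AT2G08986 had K61* in 3 libraries and G3621058C at an acceptor in all 5, with a depth of 378 for the library labelled rdr1 rdr2 rdr6. EPR1 had K216* in 3-75 and in that library, and AT5G36330 had C14329444A at an acceptor in 3-72 and in that library.

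A pair of line-specific calls made a stop codon or altered an intron end only in a shorter isoform. In AGO3 (AT1G31290), an Argonaute protein of RNA silencing, C11188400T of 2-69 was called homozygous with 17 changed reads and 1 reference read at a quality of 124. It is synonymous (G36G) in the longest protein of 1194 residues and hits the donor of intron 1 in 1 of 3 transcripts. In BGAL9 (AT2G32810), a beta galactosidase, G13919761A of 2-20 gave Q854* in 1 of 2 transcripts, with 10 changed and 11 reference reads. The protein of that transcript has 859 residues, so the stop lies close to its end. The first codon of the gene model was changed heterozygously in AT5G02730 (M1I, 8 of 19 reads, quality 38) and in AT1G27565 (V1L, 6 of 21 reads, quality 9.52), both in 2-20. In the library labelled rdr1 rdr2 rdr6 it was changed heterozygously in AT5G36340 (M1R, 6 of 16 reads, quality 18.1). The reference first codon of AT1G27565 codes for valine, so V1L is not the loss of an ATG. These genes were named after their values were seen.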
